A study of Homo sapiens with 12 samples.

Results

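A set of 41 genes of homologous recombination, the Fanconi pathway and the ATR and ATM checkpoint was followed in gemcitabine (GEM)-resistant and parental pancreatic cancer cells. The members were chosen by gene symbol, with earlier results of these data known. All 41 were found among the 58302 genes of the deposited table, with 1 row each. BxPC-3 and CFPAC-1 are established human pancreatic adenocarcinoma cell lines, both labelled epithelial in morphology and sensitive to the drug. BxPC-3-GR, labelled mesenchymal and resistant, and CFPAC-1-GR, labelled epithelial and resistant, were derived from them by long exposure to rising GEM concentrations, so each is a population selected from 1 cell line and a stock of its own. RNA of the 4 lines was sequenced in 3 replicates each, 12 libraries in all. Nothing in the labels says that replicates were separate cultures, so p-values measure only the spread among these libraries. Resistant and parental libraries were compared within each line, and the responses of the 2 lines were then compared with each other.

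GEM is a nucleoside analogue that stalls replication forks once it is built into DNA. Stalled and broken forks are handled by the proteins encoded here. Nucleases resect broken ends, BRCA1, PALB2 and BRCA2 prepare the exposed strand for exchange, and further mediators, RAD54 proteins and helicases carry the exchange through. The Fanconi core complex attaches ubiquitin to FANCD2 and FANCI at crosslinks and stalled forks. ATR, recruited by ATRIP and activated by TOPBP1 and the RAD9A-HUS1-RAD1 clamp, signals through CHEK1 and holds cells out of mitosis, with WEE1 acting on the same step.

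Levels are given as FPKM, fragments scaled to gene length and to the mapped fragments of the library, as the authors deposited them, and can therefore be compared between genes. The spacing of low values implied 17100000 to 19700000 fragments per library in BxPC-3 and 21700000 to 25200000 in BxPC-3-GR. For CFPAC-1 the implied depth was 12600000 to 19500000 fragments, and for CFPAC-1-GR 15600000 to 21900000. A median member then rested on 105 implied fragments in CFPAC-1, against 326 in CFPAC-1-GR, 437 in BxPC-3 and 470 in BxPC-3-GR, so levels in CFPAC-1 were the least precise. The epithelial markers EPCAM, CDH1 and KRT8 were at 18.1 FPKM or more in every library and the leukocyte marker PTPRC was at 0 in all of them. Of the mesenchymal markers, VIM was lower in BxPC-3-GR (0.686 to 0.891 FPKM) than in BxPC-3 (5.51 to 7.25 FPKM), while CDH2 (4.86 to 6.35 against 1.57 to 2.32 FPKM) and COL1A1 (0.983 to 1.23 against 0.664 to 0.772 FPKM) were higher. The other 4 of the list (COL1A2, COL3A1, DCN and PDGFRB) were at 0.129 FPKM or less in both lines.

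The CFPAC-1 libraries stood apart from the other 9 before any member was considered. Across 12184 genes, the deviation of a library from the mean of all libraries was related to the GC content of the gene's longest transcript with a Spearman coefficient of 0.677 to 0.695 in the 3 CFPAC-1 libraries, and of -0.468 to -0.314 in the other 9. Members were poor in GC, with a median of 42.4% and a range of 36.3% to 63.8%, against a median of 49.2% over the genes tested in the CFPAC-1 lines. As all CFPAC-1 libraries shared the relation, it cannot be told apart from the group. A correction of every library for GC content and gene length was therefore run beside the values as deposited. Its result, called the corrected value below, is given for the changes in CFPAC-1-GR, and in BxPC-3-GR where it altered a call or for the members with the largest falls.

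Over all members, parental CFPAC-1 had the lowest levels and parental BxPC-3 the highest. The summed level of the 41 members was 210.2 to 216 FPKM in BxPC-3 and 161 to 169 FPKM in BxPC-3-GR. CFPAC-1 reached 94.4 to 95.0 FPKM, and CFPAC-1-GR 150.3 to 172 FPKM. As deposited, the 2 pairs thus differed in opposite directions, and the ranges of the resistant lines overlapped each other. The sums were not corrected for GC content, to which the values of the CFPAC-1 libraries were related. Of the 41 members, 30 had their lowest mean in CFPAC-1 and 21 their highest in BxPC-3. In CFPAC-1, 16 members had a mean below 1 FPKM, against 1 in BxPC-3, 2 in CFPAC-1-GR and 3 in BxPC-3-GR. The lowest member of CFPAC-1 was ATM and the highest FANCG, while RBBP8 was highest in BxPC-3, TOPBP1 in BxPC-3-GR and FANCI in CFPAC-1-GR.

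**Figure D1:**
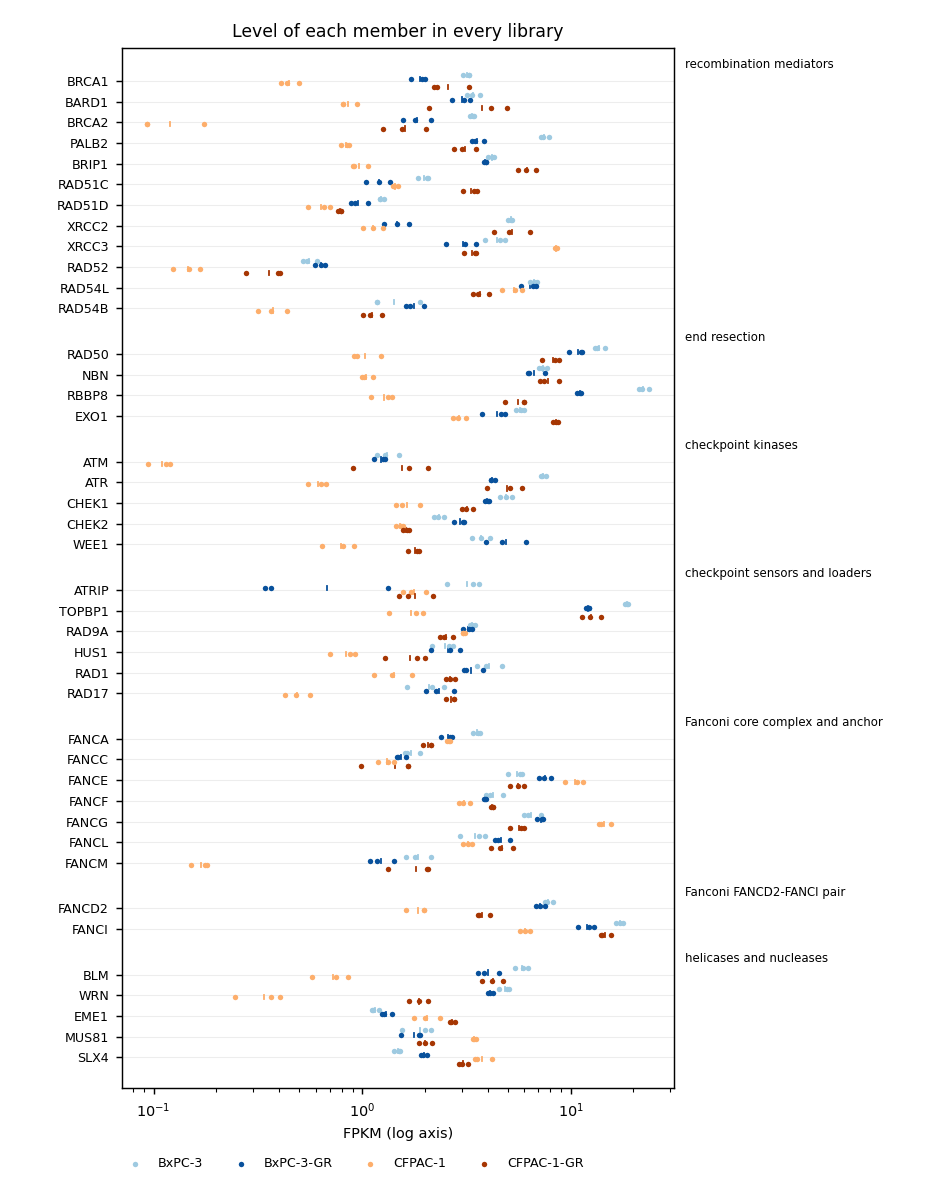
Level of each of the 41 members in every library, with FPKM on a log axis and members grouped by role. Points are single libraries and short bars the mean of 3. The 3 CFPAC-1 points lie to the left of the other groups for 30 members by their mean, and to the right for FANCE, FANCG, XRCC3, MUS81 and SLX4.

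Promoters of 3 members that met the criteria for differential expression and held an E2F-type motif are shown, since E2F factors drive many S phase genes and these members differed between the groups. RefSeq promoter windows on GRCh38.p14, from 250 bases before to 50 after a start, were found for 35 of the 41 members in 49 windows. FANCI, HUS1, NBN, RAD54B, WEE1 and WRN had no entry. The motif was searched on both strands as TTTCCCGC, TTTCGCGC, TTTGCCGC or TTTGGCGC. It was present in 6 of 49 member windows (12.2%), those of XRCC2, EXO1, TOPBP1, FANCA, FANCC and FANCD2, and in 1164 of all 35116 windows (3.31%). The cell cycle element TTTGAA, searched on both strands, was in 4 member windows (8.16%) and in 15.2% of all windows. Member windows had a median GC content of 64.3%, against 58.7% over all windows. Whether the motif shares follow from GC content was not tested. Capitals mark the E2F-type motif, which lies in the opposite orientation in XRCC2 and TOPBP1. Windows run 5′ to 3′ on the strand of the gene, at chr7:152676092-152676391 (minus) for XRCC2, chr1:241847954-241848253 (plus) for EXO1 and, for 30 bases around the start of TOPBP1, chr3:133661930-133661959 (minus).
XRCC2: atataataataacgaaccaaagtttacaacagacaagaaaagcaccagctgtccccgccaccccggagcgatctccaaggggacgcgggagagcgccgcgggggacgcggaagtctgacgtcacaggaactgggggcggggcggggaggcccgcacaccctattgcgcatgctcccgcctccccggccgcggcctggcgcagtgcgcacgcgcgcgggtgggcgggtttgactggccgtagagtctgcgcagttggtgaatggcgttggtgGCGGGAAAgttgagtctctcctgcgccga
EXO1: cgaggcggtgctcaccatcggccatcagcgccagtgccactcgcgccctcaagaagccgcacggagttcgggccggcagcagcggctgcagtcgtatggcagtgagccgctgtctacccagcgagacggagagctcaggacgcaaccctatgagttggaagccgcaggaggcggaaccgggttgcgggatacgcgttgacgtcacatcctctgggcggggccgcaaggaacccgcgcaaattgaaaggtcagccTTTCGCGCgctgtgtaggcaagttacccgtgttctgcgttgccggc
TOPBP1: ccgcgcggttgGCGCGAAAgtcggttcccg
XRCC2 and TOPBP1 responded in opposite directions in the 2 lines, and EXO1 likewise, as described with their roles.

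In BxPC-3-GR most members that changed were lower than in the parental line, mostly by less than 2-fold, whereas most were higher in CFPAC-1-GR. Differences were tested with limma on log2(FPKM + 1), where a log2FC is the mean of the resistant minus that of the parental libraries, leaving out genes whose mean was under 1 FPKM. Significantly differentially expressed (SDE) genes passed an adjusted p of 0.05 and a log2FC of 1 in either direction, and a gene is said to have risen or fallen where the adjusted p alone was below 0.05. The added 1 understates the fold change of low genes. With 3 libraries against 3, the smallest p that an exact permutation test can give for 1 gene is 0.1.

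In BxPC-3-GR, 40 members were tested, all but RAD52. Of these 19 fell and 4 rose (CHEK2, FANCE, FANCL and SLX4), while 31.5% of all 11710 genes tested fell and 26.2% rose. After the correction 21 fell, against 32.3% of all genes, and 5 rose, against 26.6%. The members SDE were 2, XRCC2 and ATRIP, both downregulated, against 3.62% of all genes, and 0 were upregulated, against 4.14%. The same 2 were SDE after the correction (3.61% of all genes), again with 0 upregulated (4.08%). RBBP8 and PALB2 lay just under the fold criterion, and passed it with a pseudocount of 0.1. The median log2FC was -0.16 over the members and -0.05 over all genes. In 22 members every BxPC-3-GR library was below every BxPC-3 library (36.0% of all genes), and in 5 every one was above (30.1%). In RNA of whole cultures, fewer cells of a kind and less RNA per cell cannot be told apart.

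In CFPAC-1-GR, 35 members were tested, of which 24 rose and 8 fell, with 44.6% of all 12051 genes rising and 34.9% falling. SDE members numbered 15 upregulated, against 20.5% of all genes, and 2 downregulated, FANCG and XRCC3, against 11.7%. After the correction 17 rose, against 40.5% of all genes, and 6 fell, against 21.6%. Only RAD50 and TOPBP1 then remained SDE, against 7.07% of all genes upregulated, and 0 were downregulated, against 2.35%. Groups did not overlap in 24 members that were higher (45.7% of all genes) and 8 that were lower (36.4%). The median log2FC over the members was 0.67, or 0.55 above the median of all genes, a median that itself moved from 0.13 to -0.11 under median-of-ratios and to -0.21 under upper-quartile scaling. It was 0.21 after the correction, or 0.07 above that of all genes. BRCA2, RAD51D, RAD52, RAD54B, ATM and FANCM had means under 1 FPKM and were not tested. Of the 35, 10 passed the filter only through CFPAC-1-GR, among them 8 of the 15 upregulated SDE members, so the count is no support for a direction. Without the filter, 18 of 41 members were upregulated (8.69% of all genes) and 2 downregulated (4.69%). PALB2, FANCI and WRN were no longer SDE under either other scaling and EXO1 under upper-quartile scaling, while FANCE then passed the criteria as downregulated under both.

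**Figure D2:**
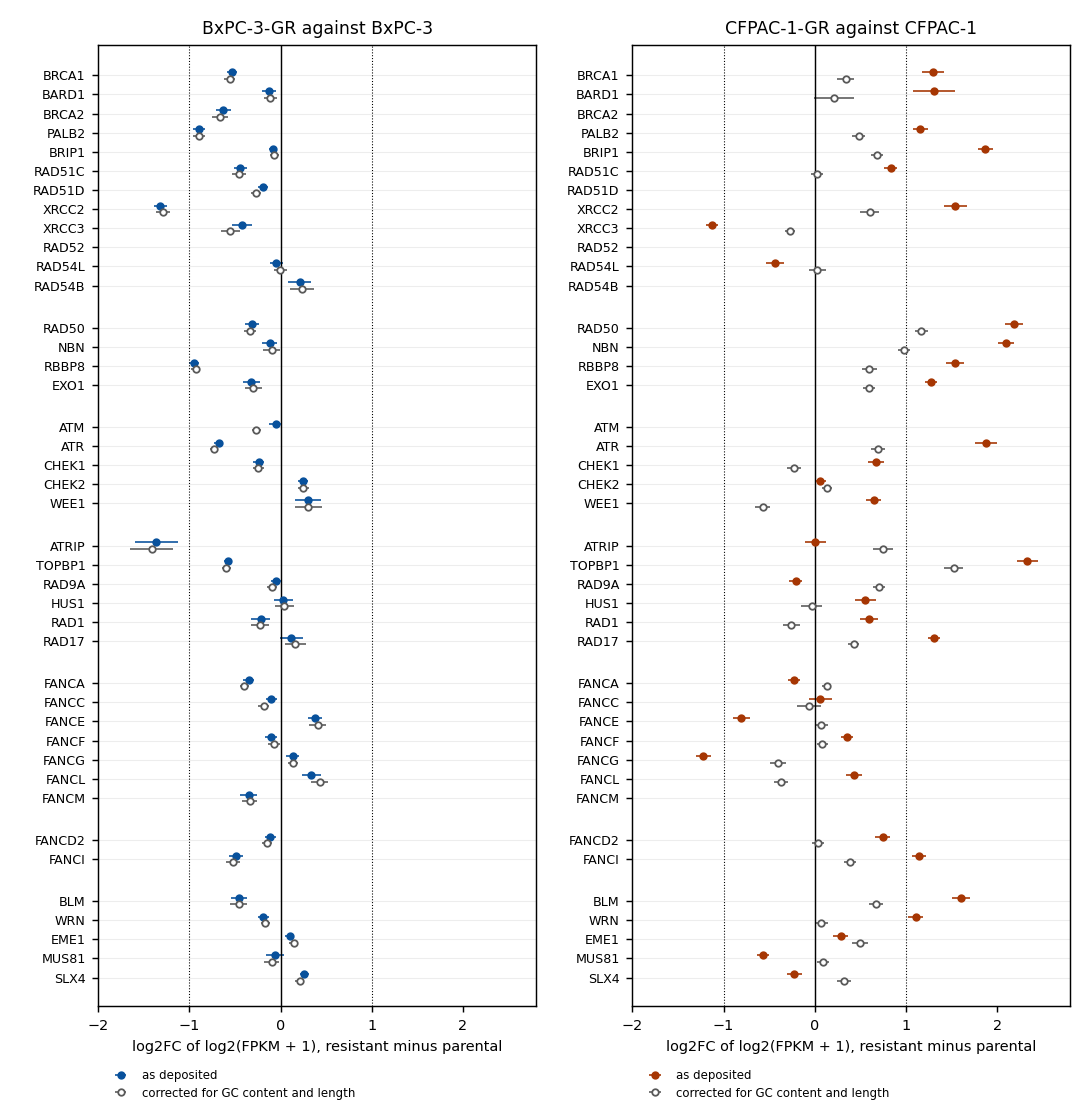
log2FC on the log2(FPKM + 1) scale of each tested member in BxPC-3-GR (left) and CFPAC-1-GR (right), as deposited (filled) and corrected for GC content and length (open), with standard errors. Dotted lines mark a log2FC of 1 in either direction. In BxPC-3-GR the 2 values of most members nearly coincide, with ATM the widest apart, whereas in CFPAC-1-GR most open points lie nearer 0 and RAD50 and TOPBP1 alone stay above 1.

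Across the 35 members tested in CFPAC-1-GR, log2FC and GC content were related with a Spearman coefficient of -0.803, and across all 12030 genes with a GC content of -0.777. The correction left -0.177 and -0.029. Genes of 1 library share its depth and base composition, so these coefficients only describe the libraries. All 22 tested members under 45% GC were above 0, with a median log2FC of 1.28 and a corrected median of 0.41. All 15 upregulated SDE members were among them. So were the 10 members that passed the filter only through CFPAC-1-GR, whose direction as deposited the filter fixed. Of the 8 members above 55% GC, 7 were below 0, with a median of -0.40 and a corrected median of 0.11. In BxPC-3-GR the coefficient was 0.140 across 40 members and 0.039 across all genes.

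**Figure D3:**
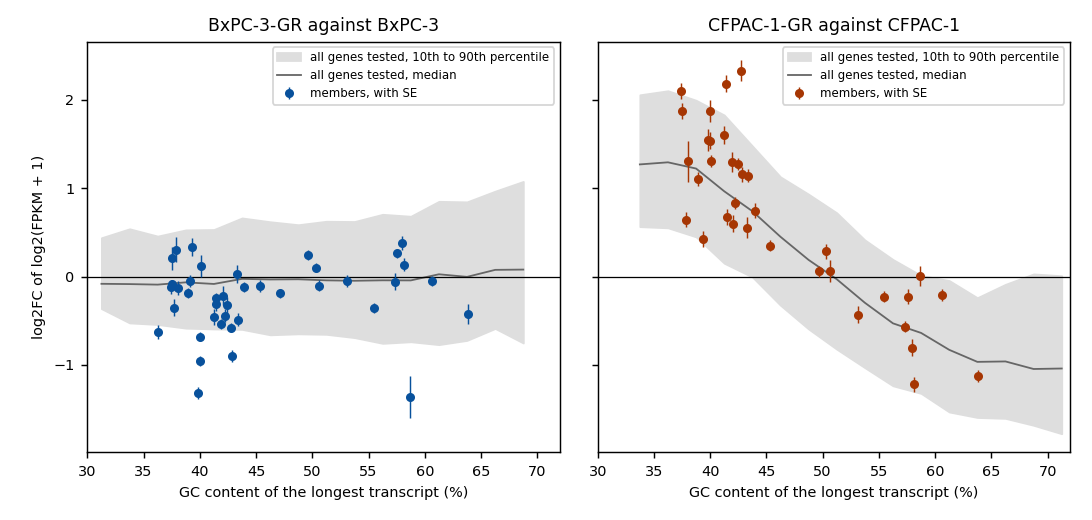
log2FC of tested members, with standard errors, against the GC content of the longest transcript, beside the median and the 10th to 90th percentile of all genes tested in bins of GC content holding at least 20 genes. In BxPC-3-GR (left) the median of all genes is flat near 0, and in CFPAC-1-GR (right) it falls with GC content, as do the members, with RAD50 and TOPBP1 well above the band.

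Recombination mediators, 12 members, fell in 7 of 11 tests in BxPC-3-GR (31.5% of all genes) and rose in none (26.2%). In CFPAC-1-GR 6 of 8 rose (44.6% of all genes) and 2 fell (34.9%). After the correction 4 rose (40.5%) and 1 fell (21.6%). BRCA1, BARD1, PALB2 and BRIP1, all among the 6, passed the filter only through CFPAC-1-GR. Their direction as deposited was thus fixed by the filter, and the count is no support for a direction. XRCC2, a mediator of strand exchange (ENSG00000196584, chromosome 7, 152644779 to 152676165 on GRCh38), was at 5.20, 5.24 and 5.03 FPKM in BxPC-3 and at 1.68, 1.47 and 1.27 FPKM in BxPC-3-GR. The groups were far apart, with a log2FC of -1.32 (SE 0.07, adjusted p 3.47e-05) and a corrected value of -1.29. In CFPAC-1 it was at 1.01, 1.25 and 1.12 FPKM, and in CFPAC-1-GR at 6.36, 4.31 and 5.09 FPKM. Here the resistant libraries were the high ones (log2FC 1.54, SE 0.13), and the corrected value of 0.60 (SE 0.10, adjusted p 0.00232) stayed below the fold criterion. XRCC2 thus had its highest means in BxPC-3 (5.16 ± 0.110 FPKM, SD, n = 3) and CFPAC-1-GR (5.25 ± 1.04 FPKM), whose libraries overlapped.

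BRCA1, which guides resection and loads PALB2, was at 3.27, 3.06 and 3.25 FPKM in BxPC-3 and at 2.01, 1.95 and 1.73 FPKM in BxPC-3-GR. All resistant libraries were lower (log2FC -0.54, SE 0.06, adjusted p 0.000497). CFPAC-1 libraries held it at 0.410, 0.438 and 0.496 FPKM and CFPAC-1-GR libraries at 3.25, 2.21 and 2.29 FPKM. The latter were all higher, with a log2FC of 1.30 (SE 0.12) as deposited and 0.34 (SE 0.09) corrected. BARD1, its RING partner, was at 3.19, 3.37 and 3.68 FPKM in BxPC-3 and at 2.71, 3.31 and 3.07 FPKM in BxPC-3-GR, which overlapped (adjusted p 0.186). In CFPAC-1-GR BARD1 reached 4.98, 4.17 and 2.10 FPKM, against 0.942, 0.810 and 0.811 FPKM in CFPAC-1. Replicate 3 of CFPAC-1-GR was the low one, and the log2FC of 1.30 (SE 0.23) became 0.21 (SE 0.22, adjusted p 0.445) after the correction.

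PALB2, the bridge between BRCA1 and BRCA2, was at 7.92, 7.22 and 7.37 FPKM in BxPC-3 and at 3.35, 3.86 and 3.49 FPKM in BxPC-3-GR. It fell by 0.90 on the log2 scale (SE 0.06, adjusted p 9.75e-05), the same size after the correction. Its levels in CFPAC-1 were 0.844, 0.794 and 0.864 FPKM and in CFPAC-1-GR 3.53, 2.77 and 3.02 FPKM. It rose there by a log2FC of 1.16 (SE 0.08), or 0.48 (SE 0.07, adjusted p 0.00149) corrected. BRCA2, which acts with PALB2 at the exposed strand, was at 3.29, 3.39 and 3.43 FPKM in BxPC-3 and at 1.79, 2.15 and 1.58 FPKM in BxPC-3-GR. It fell, with a log2FC of -0.63 (SE 0.08, adjusted p 0.000972). In CFPAC-1 BRCA2 was at 0.0934, 0.174 and 0.0927 FPKM, from 15 to 27 implied fragments, and in CFPAC-1-GR at 2.02, 1.25 and 1.55 FPKM. These groups did not overlap, but BRCA2 was not tested there.

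BRIP1, a helicase that binds BRCA1, was at 4.32, 4.04 and 4.20 FPKM in BxPC-3 and at 3.92, 3.92 and 3.84 FPKM in BxPC-3-GR, apart by little (log2FC -0.08, adjusted p 0.173). Parental CFPAC-1 cells had it at 0.910, 0.907 and 1.07 FPKM and CFPAC-1-GR cells at 6.85, 5.59 and 6.15 FPKM. Its log2FC of 1.87 (SE 0.09) became 0.68 (SE 0.06, adjusted p 0.000196). RAD51C, another mediator of strand exchange, was at 2.06, 1.85 and 2.05 FPKM in BxPC-3, and 1.20, 1.36 and 1.04 FPKM in BxPC-3-GR (log2FC -0.44, SE 0.07, adjusted p 0.00231). RAD51C was at 1.42, 1.49 and 1.40 FPKM in CFPAC-1 and at 3.46, 3.54 and 3.03 FPKM in CFPAC-1-GR. All resistant libraries were higher as deposited (log2FC 0.83, SE 0.07), while the corrected value was 0.02 (SE 0.07, adjusted p 0.776).

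XRCC3, a partner of RAD51C and the member richest in GC at 63.8%, was at 4.82, 4.57 and 3.90 FPKM in BxPC-3 and at 3.52, 3.12 and 2.52 FPKM in BxPC-3-GR (log2FC -0.43, SE 0.11, adjusted p 0.0179). In CFPAC-1 it was at 8.63, 8.43 and 8.51 FPKM and in CFPAC-1-GR at 3.10, 3.48 and 3.51 FPKM. It fell in both lines, and the log2FC of -1.13 (SE 0.07) in CFPAC-1-GR became -0.27 (SE 0.06, adjusted p 0.00699). KLC1 on the opposite strand shares 76.7% of the exon bases of XRCC3, and whether counting used strand is not given, so its values are uncertain. KLC1 itself was at 4.70 ± 0.239 FPKM in CFPAC-1 and 5.79 ± 0.521 FPKM in CFPAC-1-GR (SD, n = 3), not lower. RAD54L, a motor that drives strand exchange, was at 6.42, 6.72 and 6.88 FPKM in BxPC-3 and at 6.63, 6.86 and 5.76 FPKM in BxPC-3-GR. The groups overlapped (adjusted p 0.566). In CFPAC-1 RAD54L was at 4.72, 5.44 and 5.86 FPKM and in CFPAC-1-GR at 3.58, 4.07 and 3.40 FPKM, a log2FC of -0.43 (SE 0.10) that turned to 0.03 (SE 0.09, adjusted p 0.8) with the correction. LRRC41, on the opposite strand, shares 25.1% of its exon bases and went from 6.41 ± 0.140 to 3.00 ± 0.0475 FPKM in the same lines.

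The other 3 mediators, RAD51D, RAD52 and RAD54B, had means of 0.146 to 1.77 FPKM in all groups. RAD51D fell in BxPC-3-GR (log2FC -0.19, SE 0.05, adjusted p 0.0245), and RAD54B did not pass the test there (adjusted p 0.21). FSBP shares 59.1% of the exon bases of RAD54B on the same strand, so reads could have been split between them.

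End resection had the highest median log2FC of the roles in CFPAC-1-GR, 1.82 as deposited and 0.79 corrected. All 4 members were SDE as deposited (20.5% of all genes upregulated) and still raised after the correction (40.5% of all genes rose). In BxPC-3-GR 3 of 4 fell, against 31.5% of all genes. RAD50 (ENSG00000113522, chromosome 5, 132556019 to 132646344 on GRCh38) encodes the long coiled-coil ATPase of the MRE11 complex that senses broken ends. It was at 13.3, 13.0 and 14.6 FPKM in BxPC-3 and at 9.88, 11.4 and 11.2 FPKM in BxPC-3-GR, lower in every resistant library (log2FC -0.31, SE 0.07, adjusted p 0.0121). CFPAC-1 libraries held it at 0.945, 1.23 and 0.913 FPKM and CFPAC-1-GR libraries at 8.85, 7.33 and 8.42 FPKM. The mean was 7.98-fold higher, and the log2FC of 2.18 (SE 0.10) became 1.17 (SE 0.07, adjusted p 6.43e-05) with the correction, past the SDE criteria both ways. The annotated gene AC116366.3 holds 79.7% of the exon bases of RAD50 on the same strand, so reads could have been split between them. Its level was 0.270 ± 0.183 FPKM or less in each group (SD, n = 3). As the counting program is not given, this does not show how shared reads were assigned.

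NBN, the partner that brings RAD50 and MRE11 to ATM, was at 7.71, 7.32 and 7.03 FPKM in BxPC-3 and at 6.33, 7.58 and 6.22 FPKM in BxPC-3-GR, which overlapped (adjusted p 0.257). In CFPAC-1 NBN was at 1.02, 1.13 and 0.996 FPKM and in CFPAC-1-GR at 8.81, 7.45 and 7.13 FPKM. It rose by a log2FC of 2.10 (SE 0.09), and the corrected value of 0.98 (SE 0.06, adjusted p 7.63e-05) lay just under the fold criterion. RBBP8, also known as CtIP, starts resection together with the MRE11 complex. It was the highest member of BxPC-3 at 21.3, 22.0 and 23.8 FPKM, and was at 11.2, 11.2 and 10.8 FPKM in BxPC-3-GR. The fall of 2.02-fold in the mean (log2FC -0.95, SE 0.06, adjusted p 5.54e-05) left every resistant library below every parental one. In CFPAC-1 RBBP8 was at 1.10, 1.33 and 1.39 FPKM and in CFPAC-1-GR at 5.996, 4.87 and 5.96 FPKM, with a log2FC of 1.54 (SE 0.10) and 0.60 (SE 0.08, adjusted p 0.00107) corrected.

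EXO1, the exonuclease of long-range resection, was at 5.48, 5.79 and 5.96 FPKM in BxPC-3 and at 4.64, 4.87 and 3.75 FPKM in BxPC-3-GR (log2FC -0.32, SE 0.09, adjusted p 0.0231). Its levels in CFPAC-1 were 2.74, 3.15 and 2.90 FPKM and in CFPAC-1-GR 8.72, 8.55 and 8.21 FPKM. EXO1 was higher in CFPAC-1-GR than in any other line, with a log2FC of 1.27 (SE 0.07) and 0.59 (SE 0.06, adjusted p 0.000315) corrected.

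Checkpoint kinases changed by unequal amounts. ATR, the kinase that answers to stalled forks, was at 7.18, 7.33 and 7.59 FPKM in BxPC-3 and at 4.18, 4.35 and 4.13 FPKM in BxPC-3-GR. It fell by 0.68 on the log2 scale (SE 0.05, adjusted p 9.36e-05). In CFPAC-1 ATR was at 0.634, 0.670 and 0.548 FPKM and in CFPAC-1-GR at 5.87, 3.97 and 5.10 FPKM. The mean rose 8.06-fold, with a log2FC of 1.87 (SE 0.12) and 0.69 (SE 0.08, adjusted p 0.000448) corrected. ATM, which answers to double-strand breaks, was at 1.28, 1.17 and 1.50 FPKM in BxPC-3 and at 1.29, 1.14 and 1.26 FPKM in BxPC-3-GR. These overlapped (log2FC -0.05, adjusted p 0.523), although the corrected value of -0.27 (SE 0.05, adjusted p 0.00489) passed the test. In CFPAC-1 ATM was at 0.120, 0.0943 and 0.114 FPKM, from 28 to 56 implied fragments, and in CFPAC-1-GR at 2.07, 0.905 and 1.67 FPKM, untested for its low mean.

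CHEK1, the effector of ATR, was at 5.22, 4.60 and 4.89 FPKM in BxPC-3 and at 4.06, 4.03 and 3.87 FPKM in BxPC-3-GR (log2FC -0.24, SE 0.06, adjusted p 0.0121). Parental CFPAC-1 cells had it at 1.55, 1.91 and 1.46 FPKM and CFPAC-1-GR cells at 3.41, 3.16 and 3.02 FPKM. The log2FC of 0.67 (SE 0.09) turned to -0.23 (SE 0.08, adjusted p 0.037) with the correction, so its direction rests on that choice. WEE1, which restrains CDK1, was at 4.11, 3.73 and 3.38 FPKM in BxPC-3 and at 4.68, 3.91 and 6.10 FPKM in BxPC-3-GR, with overlap (adjusted p 0.115). In CFPAC-1 WEE1 was at 0.916, 0.809 and 0.644 FPKM and in CFPAC-1-GR at 1.87, 1.66 and 1.84 FPKM, and its log2FC of 0.64 (SE 0.08) turned to -0.57 (SE 0.08, adjusted p 0.00103). CHEK2, the effector of ATM, rose in BxPC-3-GR from 2.34 ± 0.134 to 2.96 ± 0.173 FPKM (SD, n = 3, adjusted p 0.0121) and was at 1.52 ± 0.0625 and 1.63 ± 0.0593 FPKM in CFPAC-1 and CFPAC-1-GR (adjusted p 0.4).

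Among the 6 checkpoint sensors and loaders, ATRIP differed most in BxPC-3-GR and TOPBP1 in CFPAC-1-GR. ATRIP (ENSG00000164053, chromosome 3, 48446710 to 48465716 on GRCh38), the partner that brings ATR to coated single strands, was at 2.55, 3.42 and 3.63 FPKM in BxPC-3. In BxPC-3-GR it was at 0.341, 1.33 and 0.366 FPKM, all below BxPC-3, with replicate 2 apart from the other two. Its log2FC of -1.36 (SE 0.24, adjusted p 0.00327) was the largest fall of a member on this scale, and -1.41 corrected. The mean fell 4.72-fold, or 9.07-fold without replicate 2 of BxPC-3-GR. In CFPAC-1 ATRIP was at 1.57, 2.02 and 1.71 FPKM and in CFPAC-1-GR at 1.66, 1.50 and 2.19 FPKM. These overlapped (log2FC 0.01, SE 0.11), while the corrected value was 0.75 (SE 0.11, adjusted p 0.00119). TREX1 shares 27.9% of the exon bases of ATRIP on the same strand, so reads could have been split, and it was at 0.375 ± 0.0790 FPKM in BxPC-3 and 0.249 ± 0.0565 FPKM in BxPC-3-GR (SD, n = 3).

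TOPBP1 (ENSG00000163781, chromosome 3, 133598175 to 133661893 on GRCh38), the activator of ATR, was at 18.9, 18.2 and 18.6 FPKM in BxPC-3 and at 12.2, 12.3 and 11.8 FPKM in BxPC-3-GR. It fell by 0.58 on the log2 scale (SE 0.05, adjusted p 0.00015). In CFPAC-1 it was at 1.82, 1.96 and 1.34 FPKM and in CFPAC-1-GR at 14.0, 11.3 and 12.4 FPKM. Its log2FC was the highest of a tested member on the log2(FPKM + 1) scale, 2.33 (SE 0.12) and 1.52 (SE 0.10, adjusted p 8.05e-05) corrected, while by the ratio of means it rose 7.36-fold, below ATR, RAD50 and NBN. The 2 resistant lines, at 12.1 ± 0.280 and 12.6 ± 1.33 FPKM (SD, n = 3), overlapped.

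RAD17, which loads the clamp, was at 2.17, 1.65 and 2.46 FPKM in BxPC-3 and at 2.27, 2.03 and 2.75 FPKM in BxPC-3-GR, with overlap (adjusted p 0.451). CFPAC-1 libraries held it at 0.563, 0.425 and 0.480 FPKM and CFPAC-1-GR libraries at 2.77, 2.53 and 2.75 FPKM, a log2FC of 1.31 (SE 0.07) or 0.43 (SE 0.06, adjusted p 0.00125) corrected. The clamp subunits RAD9A, HUS1 and RAD1 did not pass the test in BxPC-3-GR (log2FC -0.22 to 0.03). In CFPAC-1-GR all 3 passed it but turned with the correction. RAD9A went from -0.21 to 0.71, HUS1 from 0.55 to -0.03 and RAD1 from 0.60 to -0.26.

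Fanconi core members had log2FC between -0.35 and 0.38 in BxPC-3-GR, where 2 rose (26.2% of all genes) and 2 fell (31.5%). In CFPAC-1-GR 2 of 6 rose (44.6% of all genes) and 3 fell (34.9%). After the correction 0 rose (40.5%) and 2 fell (21.6%). FANCA was at 3.68, 3.62 and 3.40 FPKM in BxPC-3 and at 2.70, 2.65 and 2.40 FPKM in BxPC-3-GR, lower in all (log2FC -0.35, SE 0.06, adjusted p 0.00252). Its levels in CFPAC-1 were 2.55, 2.62 and 2.63 FPKM and in CFPAC-1-GR 2.13, 1.97 and 2.13 FPKM, with a log2FC of -0.23 (SE 0.06) that turned to 0.13 (SE 0.05, adjusted p 0.0708). ZNF276, on the opposite strand, shares 23.6% of the exon bases of FANCA. It was at 1.44 ± 0.377 FPKM in BxPC-3 and at 0.987 ± 0.0539 FPKM in BxPC-3-GR (SD, n = 3).

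FANCE, which links the core to FANCD2, was at 5.03, 5.87 and 5.75 FPKM in BxPC-3 and at 7.43, 7.07 and 8.04 FPKM in BxPC-3-GR, a rise of 0.38 (SE 0.07, adjusted p 0.00572). In CFPAC-1 FANCE was at 11.5, 9.37 and 10.7 FPKM and in CFPAC-1-GR at 5.15, 5.99 and 5.62 FPKM. This fall (log2FC -0.81, SE 0.09) was at 0.07 (SE 0.07, adjusted p 0.427) once corrected. FANCG (ENSG00000221829, chromosome 9, 35073835 to 35080016 on GRCh38), a scaffold of the core, was at 7.19, 6.29 and 6.01 FPKM in BxPC-3 and at 7.28, 7.40 and 6.94 FPKM in BxPC-3-GR, with overlap (adjusted p 0.156). It was the highest member of CFPAC-1 at 15.6, 14.0 and 13.8 FPKM and was at 6.003, 5.15 and 5.78 FPKM in CFPAC-1-GR. FANCG fell by 1.22 on the log2 scale (SE 0.08, adjusted p 1.58e-05), or by 0.40 (SE 0.09, adjusted p 0.00812) corrected.

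FANCM, the translocase that anchors the core to DNA, was at 1.79, 1.62 and 2.14 FPKM in BxPC-3 and at 1.09, 1.43 and 1.18 FPKM in BxPC-3-GR (log2FC -0.35, SE 0.09, adjusted p 0.0174). Parental CFPAC-1 cells had it at 0.180, 0.151 and 0.177 FPKM and CFPAC-1-GR cells at 2.07, 1.33 and 2.04 FPKM, apart but untested there. FANCL, the ubiquitin ligase of the core, rose in BxPC-3-GR (log2FC 0.34, SE 0.10, adjusted p 0.0282), and in CFPAC-1-GR turned from 0.43 to -0.37 with the correction. FANCC and FANCF did not pass the test in BxPC-3-GR as deposited, though FANCC fell after the correction (-0.19, SE 0.06, adjusted p 0.0416). FANCF rose in CFPAC-1-GR (log2FC 0.35, SE 0.07), which became 0.08 (adjusted p 0.286).

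Of the FANCD2 and FANCI pair, the targets of the core complex, FANCD2 was at 7.70, 7.56 and 8.25 FPKM in BxPC-3 and at 7.12, 7.52 and 6.84 FPKM in BxPC-3-GR. Every resistant library was lower, but the test was not passed (log2FC -0.11, SE 0.06, adjusted p 0.137). In CFPAC-1 FANCD2 was at 1.62, 1.98 and 1.97 FPKM and in CFPAC-1-GR at 4.11, 3.65 and 3.59 FPKM. The log2FC of 0.74 (SE 0.08) became 0.03 (SE 0.07, adjusted p 0.699). FANCI was at 16.5, 17.3 and 17.9 FPKM in BxPC-3 and at 12.2, 13.0 and 10.8 FPKM in BxPC-3-GR, and fell (log2FC -0.49, SE 0.08, adjusted p 0.00212). In CFPAC-1 it was at 6.41, 5.75 and 6.05 FPKM and in CFPAC-1-GR at 15.6, 14.0 and 14.2 FPKM, the highest member there. Its rise (log2FC 1.14, SE 0.07) was 0.39 (SE 0.07, adjusted p 0.0031) corrected.

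Among helicases and nucleases, BLM, which unwinds recombination intermediates, was at 5.91, 6.23 and 5.44 FPKM in BxPC-3 and at 4.55, 3.85 and 3.61 FPKM in BxPC-3-GR. It fell there (log2FC -0.46, SE 0.09, adjusted p 0.00491). In CFPAC-1 BLM was at 0.752, 0.852 and 0.578 FPKM and in CFPAC-1-GR at 4.75, 3.75 and 4.22 FPKM, a log2FC of 1.60 (SE 0.10) or 0.67 (SE 0.08, adjusted p 0.000514) corrected. WRN, its relative, was at 4.53, 5.05 and 4.95 FPKM in BxPC-3 and at 4.09, 4.02 and 4.25 FPKM in BxPC-3-GR (log2FC -0.19, SE 0.06, adjusted p 0.0275). In CFPAC-1 WRN was at 0.364, 0.245 and 0.402 FPKM and in CFPAC-1-GR at 2.07, 1.69 and 1.87 FPKM. The groups were far apart as deposited (log2FC 1.10, SE 0.08), yet the corrected value was 0.07 (SE 0.07, adjusted p 0.392).

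The nuclease EME1 rose in CFPAC-1-GR as deposited (log2FC 0.28, SE 0.09) and corrected (0.49, SE 0.09, adjusted p 0.00303), though upper-quartile scaling put it at -0.02. In BxPC-3-GR it passed the test only when corrected (0.14, SE 0.05, adjusted p 0.0446). In CFPAC-1-GR its partner MUS81 went from -0.57 to 0.09 with the correction, and the nuclease scaffold SLX4 from -0.23 to 0.32 (adjusted p 0.0103). SLX4 rose in BxPC-3-GR both as deposited and corrected (0.26 and 0.21).

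The response differed between the lines for many members. The difference was tested as an interaction over all 12 libraries, (CFPAC-1-GR minus CFPAC-1) minus (BxPC-3-GR minus BxPC-3), on 39 members and 12210 genes. By the same criteria it was higher in the CFPAC-1 lines for 20 members, against 23.6% of all genes, and lower for 2, FANCE and FANCG, against 14.4%. Among the 20, BRCA2, ATM and FANCM passed the filter only with the BxPC-3 and BxPC-3-GR libraries included. For ATM the mean also reached 1 FPKM only with CFPAC-1-GR, its highest group (mean 1.55 FPKM). After the correction 9 were higher, against 13.4% of all genes, and 0 lower, against 6.16%. These 9 were PALB2, XRCC2, RAD50, NBN, RBBP8, ATR, ATRIP, TOPBP1 and BLM. That no more than these 9 met the criteria rests on the pseudocount of 1. With a pseudocount of 0.1 the corrected difference was higher for 17 members (22.0% of all genes), the same 9 with BRCA1, BRCA2, BRIP1, EXO1, ATM, RAD9A, FANCM and WRN, and lower for 1, FANCL (8.66%).

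The corrected differences of the 9 ranged from 1.14 (NBN, SE 0.11, adjusted p 8.01e-06) to 2.20 (ATRIP, SE 0.28, adjusted p 4.8e-05). For TOPBP1 the difference was 2.91 (SE 0.13) as deposited and 2.16 (SE 0.12, adjusted p 1.32e-07) corrected. For XRCC2 it was 2.86 (SE 0.15) and 1.95 (SE 0.13). ATRIP was the one among the 9 whose difference grew with the correction, from 1.37 (SE 0.28). Its 2 parts were a fall in BxPC-3-GR and overlapping levels as deposited in the CFPAC-1 lines. The other 8 rose in CFPAC-1-GR under both treatments of the data, and 7 of these 8 fell in BxPC-3-GR, the exception being NBN. BRCA1 (1.83 and 0.95 corrected), BRIP1 (1.96 and 0.82), EXO1 (1.59 and 0.94) and FANCI (1.63 and 0.95) passed the test of the adjusted p under both but dropped below the fold criterion with the correction at a pseudocount of 1. The same held for BRCA2 (1.84 and 0.62), RAD51C (1.28 and 0.52), FANCM (1.61 and 0.46) and WRN (1.29 and 0.30). It also held, in the other direction, for FANCG (-1.35 and -0.50).

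**Figure D4:**
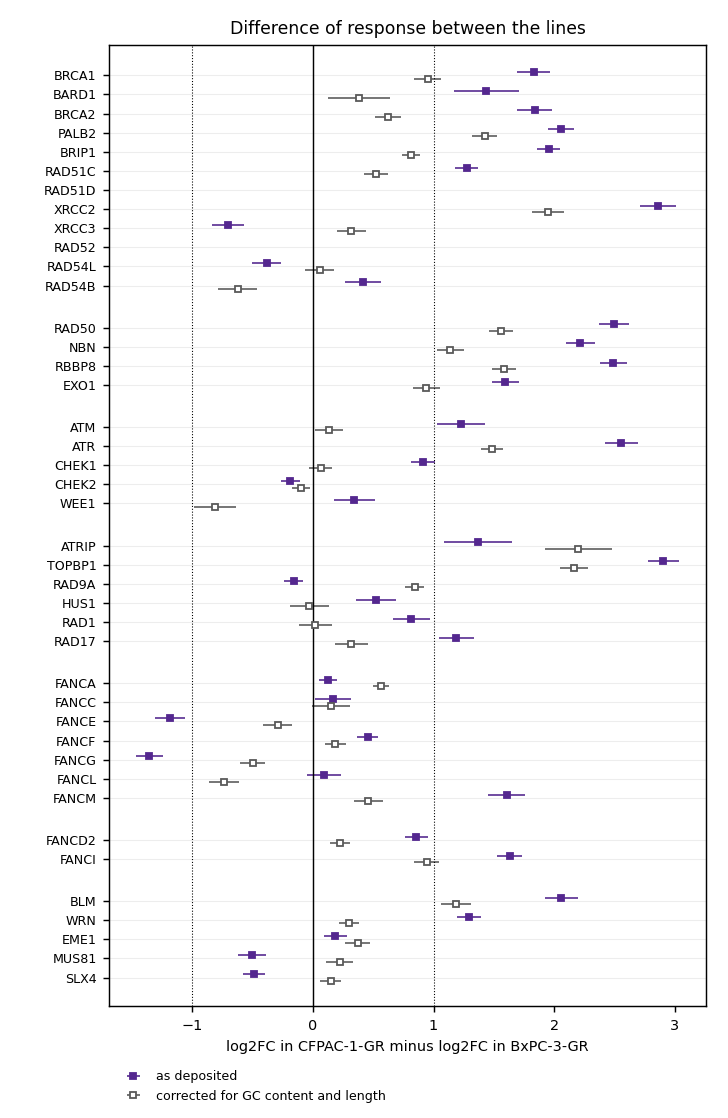
Difference of response, log2FC in CFPAC-1-GR minus log2FC in BxPC-3-GR on the log2(FPKM + 1) scale, for the 39 members tested, as deposited (filled) and corrected for GC content and length (open), with standard errors. Dotted lines mark 1 in either direction. The open points of 9 members lie beyond 1, and ATRIP is the one among them that moves outward.

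**Figure D5:**
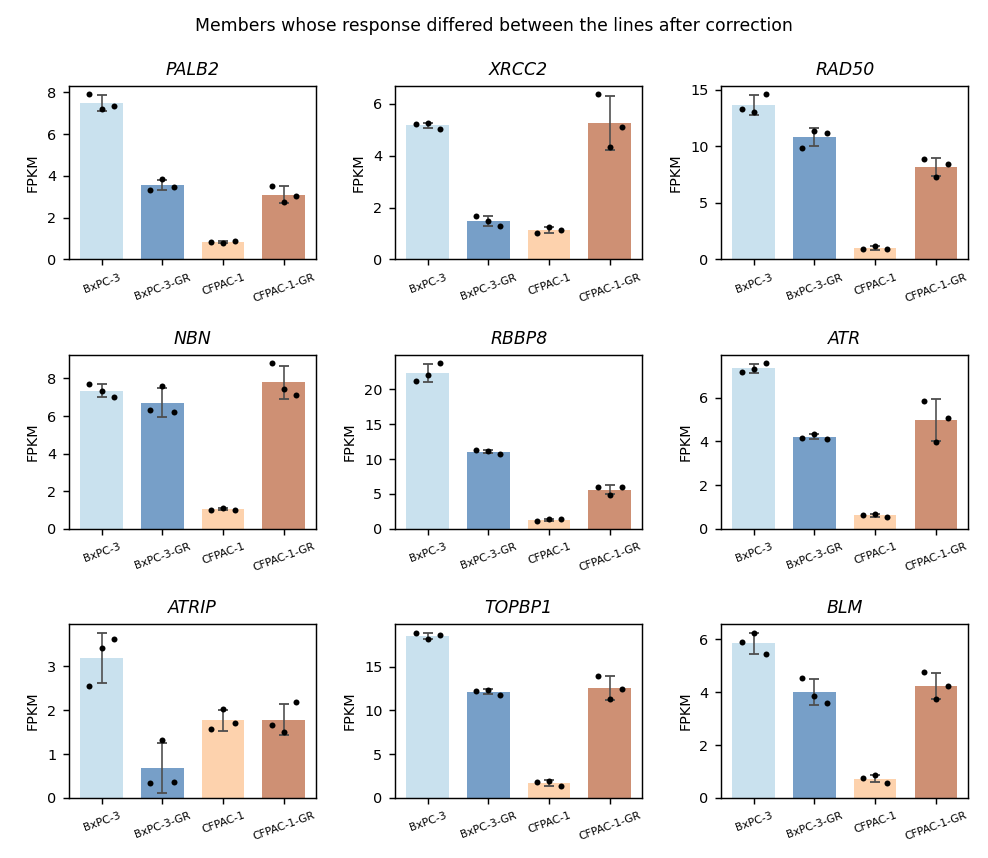
FPKM of the 9 members whose response differed after the correction, 1 panel a gene, with bars for the mean of 3 libraries, error bars for the SD and points for single libraries. CFPAC-1 is the lowest group in 8 panels, and in the ATRIP panel BxPC-3-GR is.

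Other genes of these pathways were followed as a list. Of 76 further genes in the table, 69 were tested in BxPC-3-GR, of which 37 fell (31.5% of all genes) and 4 rose (26.2%). There 1, the phosphatase gene CDC25A, was SDE (log2FC -1.34, SE 0.34), against 3.62% of all genes downregulated. In CFPAC-1-GR 63 were tested, and 33 rose (44.6% of all genes) and 18 fell (34.9%). SDE genes were 21 upregulated (20.5%) and 8 downregulated (11.7%). With the correction 4 were upregulated (7.07%) and 0 downregulated (2.35%), and CENPS of these 4 was not SDE as deposited. Those 4 included USP1, which removes ubiquitin from FANCD2 (log2FC 2.32, corrected 1.49), and the helicase gene MCM8 (1.95, corrected 1.05). The others were the Fanconi-associated CENPS (0.86, corrected 1.38) and the nuclease partner gene EME2 (1.03, corrected 1.94). MRE11, the nuclease of the complex with RAD50 and NBN, went from 1.16 ± 0.138 to 5.04 ± 0.401 FPKM (SD, n = 3) in CFPAC-1-GR, with a log2FC of 1.48 (SE 0.08) and 0.34 corrected.

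Many of these genes are expressed in S phase, and S phase and mitosis genes moved in BxPC-3-GR in the same direction as the members. Of 27 listed, 26 were tested, 20 fell (31.5% of all genes) and 0 rose (26.2%), with a median log2FC of -0.42. CCNE1 (cyclin E1, log2FC -1.41) and RRM2 (a ribonucleotide reductase subunit, -1.22) were SDE, against 3.62% of all genes downregulated. The summed level of the list was 972 to 1026 FPKM in BxPC-3 and 669.6 to 766 FPKM in BxPC-3-GR. In CFPAC-1-GR 10 of 25 rose (44.6% of all genes) and 9 fell (34.9%), and the median was 0.07. The sum was 875 to 924 FPKM there, against 940 to 963 FPKM in CFPAC-1. The part of proliferation in the members' values was not tested.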

How the data were processed

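Total RNA of the 12 libraries was sequenced on an Illumina NovaSeq. The authors deposited 1 table of FPKM values, fragments scaled to gene length and library size, for 58302 genes. The submitters' processing notes name Trimmomatic (0.27), FastQC (0.10.1) and TopHat2 (2.0.8) and both hg19 and GRCh38, and the gene coordinates in the table are those of GRCh38. The counting program and its use of strand are not given in the sources used here. The labels give 1 medium for all lines and the study's methods another for CFPAC-1.

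Groups follow the labels. As FPKM are not counts, values were tested on log2(FPKM + 1) with limma (3.58.1, R 4.3.3) with Benjamini-Hochberg adjustment over all genes whose mean reached 1 FPKM in the fitted libraries, 6 for a line and 12 for the difference of response. In the correction, natural splines (5 degrees of freedom each) of GC content and log exon length (GENCODE 29) were removed from each library. Implied depth came from the spacing of low FPKM values, of which 59.2% to 70.4% were whole fragments within 0.02, and gives an order of precision only. Tables were handled in Python (3.11.15) with pandas (2.3.3) and numpy (2.4.6) and plots drawn with matplotlib (3.10.9). The fitting code was tested on simulated data. Library values are given for members SDE in a line or with a differing response, and for BRCA1, BRCA2, PALB2, ATM, ATR, CHEK1, WEE1, FANCD2, FANCA and RAD54L. The members and lists were chosen with earlier results of these data known. Alternatives were another pseudocount, no filter, other scalings, protein-coding genes only, a replicate block, all 12 libraries and leaving out each library. The values of 1 listed gene are not reported here.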

Additional observations from a re-analysis of the deposited data

Results flagged for a closer look

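The response to selection in GEM differed between the lines, by the interaction test over 12 libraries (limma, adjusted p below 0.05 and an absolute difference above 1), for 22 members. Values are the log2FC in CFPAC-1-GR minus that in BxPC-3-GR on the log2(FPKM + 1) scale. Among mediators the difference was 1.83 for BRCA1, 1.44 for BARD1, 1.84 for BRCA2, 2.06 for PALB2, 1.96 for BRIP1, 1.28 for RAD51C and 2.86 for XRCC2. In end resection it was 2.49 for RAD50, 2.22 for NBN, 2.49 for RBBP8 and 1.59 for EXO1. Among kinases it was 1.23 for ATM and 2.55 for ATR, and among sensors and loaders 1.37 for ATRIP, 2.91 for TOPBP1 and 1.19 for RAD17. In the Fanconi group it was -1.18 for FANCE, -1.35 for FANCG, 1.61 for FANCM and 1.63 for FANCI. For the helicases it was 2.06 for BLM and 1.29 for WRN. By the same criteria 23.6% of all genes were higher and 14.4% lower. BRCA2, ATM and FANCM passed the filter only with the BxPC-3 and BxPC-3-GR libraries included, and ATM only with CFPAC-1-GR, its highest group, as well. In CFPAC-1 these members rested on 15 to 27, 28 to 56 and 16 to 30 implied fragments.

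Once GC content and length were corrected for, at a pseudocount of 1, the difference stayed above 1 for 9 of the members listed. For ATM it was then 0.13 (SE 0.12), for WRN 0.30 (SE 0.08) and for RAD17 0.32 (SE 0.14). With the correction and a pseudocount of 0.1, 18 members met the criteria. ATM and WRN were among them, as were RAD9A and FANCL from outside this list.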

How the results depend on the processing

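The 2 SDE members of BxPC-3-GR became 4 with a pseudocount of 0.1 and 23 by the adjusted p alone. The 17 of CFPAC-1-GR became 2 with the GC content and length correction, 7 with the correction and a pseudocount of 0.1, and 32 by the adjusted p alone. The 22 members whose response differed became 9 with the correction, 18 with the correction and a pseudocount of 0.1, and 26 with that pseudocount alone. With the correction and 1 library left out, the counts were 2 to 3 in CFPAC-1-GR and 9 to 11 for the difference, with 10 without CFPAC-1 replicate 1 or CFPAC-1-GR replicate 3 and 11 without BxPC-3-GR replicate 2. The correction turned the sign of 11 members in CFPAC-1-GR that had passed the test, and of FANCC, which passed it neither way. The values, first at a pseudocount of 1 and then of 0.1, were 0.030 and 0.098 for RAD54L, -0.23 and -0.21 for CHEK1, -0.57 and -0.56 for WEE1, 0.71 and 0.91 for RAD9A, -0.26 and -0.20 for RAD1, 0.13 and 0.12 for FANCA, 0.073 and 0.22 for FANCE, -0.37 and -0.54 for FANCL, 0.091 and 0.11 for MUS81, and 0.32 and 0.39 for SLX4. HUS1 turned to -0.033 only at a pseudocount of 1. Upper-quartile scaling turned CHEK2 to -0.21 and EME1 to -0.020 in CFPAC-1-GR, and both scalings turned ATRIP and FANCC and median-of-ratios scaling CHEK2 (-0.13). Upper-quartile scaling left 11 members upregulated (12.3% of all genes) and 3 downregulated (22.0%), and median-of-ratios scaling 12 (14.5%) and 3 (18.9%). The cause of these changes was not tested. The replicate numbers did not pair the samples, with correlations of same-numbered libraries between -0.134 and 0.0895. The replicate block changed the call of none of 97 values, and with the correction it gave the same 2 and 9 members and the same signs as the correction alone. Without a filter, among protein-coding genes only, and with all 12 libraries, no SDE call of a member tested as deposited changed. With a library left out and no correction, SDE members numbered 2 in BxPC-3-GR, 16 to 19 in CFPAC-1-GR and 21 to 22 for the difference, and members near 0 changed sign, RAD54L, ATM, HUS1 and MUS81 in BxPC-3-GR and ATRIP and FANCC in CFPAC-1-GR. The correction with a pseudocount of 0.1, the correction with libraries left out and the ratio of mean FPKM were chosen after seeing the data. Depth limits the members of CFPAC-1 most, where the lowest, RAD52, rested on 8 implied fragments in 1 library.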
